A study of Mus musculus with 26 samples.

Results

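The 10 genes described here encode factors that make and finish piRNAs in the mouse male germline: *Mov10l1*, *Pld6*, *Pnldc1*, *Henmt1*, *Asz1*, *Gpat2*, *Mael*, *Ddx4*, *Exd1* and *Fkbp6*. They were taken by symbol from the deposited table of 51124 genes, and all 10 were found once. PIWI, GTSF and Tudor genes of the pathway are used only for comparison. The measurements are total RNA-seq of whole testes from adult mice, with 2 libraries for each of 3 genotypes and a separate mouse for each library. Libraries N1 and N2 came from wild type (WT). N3 and N4 came from *10xPerf*, a knock-in strain whose *Ythdc2* gene carries 10 target sites that pair fully with piR-A, a pachytene piRNA. The sites lie in the 3′UTR, in the last exon. N5 and N6 came from *10xBulge*, in which the same number of sites carry mismatches opposite piRNA nucleotides 10 and 11. The lines were founded by injecting B6D2F1/J hybrid embryos with Cas9 and were kept as homozygotes. The number of founders, the exact age and the genetic background of the wild-type mice are not given in the sources used here, and these cannot be told apart from the genotype.

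PIWI-interacting RNAs (piRNAs) are small RNAs that guide PIWI proteins to transposon transcripts and other RNAs. In pachytene spermatocytes long single-stranded precursors are unwound by the helicase MOV10L1 and cut at the mitochondrial surface by the endonuclease PLD6, also called MitoPLD or Zucchini. The outer mitochondrial membrane proteins GASZ (from *Asz1*) and GPAT2 belong to the same sites. PNLDC1 then trims the 3′ end and HENMT1 methylates it. DDX4 (the mouse VASA homologue) and maelstrom (from *Mael*) are found in germ granules, where precursors and targets are handled. EXD1 acts with TDRD12, and FKBP6 is a co-chaperone of HSP90, and both have been linked to the amplification of piRNAs by slicing. Loss of most of these factors arrests spermatogenesis and makes male mice sterile.

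The values are normalized counts, which the authors obtained with DESeq2 from reads assigned by salmon. The libraries held about 41.1 to 61.6 M reads by the worth of a single read in the table. All 10 genes passed the filter (10 or more normalized counts in 2 or more libraries), with a lowest value of 252 for *Pnldc1* in N2, where 3 reads are worth 2.73 to 3.63 normalized counts depending on the library. Differences were fitted on log2(normalized count + 1) with limma over all 6 libraries and 23782 genes, and a gene was called at a Benjamini-Hochberg adjusted p under 0.1. With 2 libraries against 2, an exact permutation test of a single gene cannot give a p below 0.33. The p-values rest on the pooled spread between mice.

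*10xBulge* testes differed from the other genotypes in their cell type markers. All 14 spermatid markers fell, and the median of their log2 fold changes against wild type was -7.31. Their summed level was 595680 to 838541 normalized counts in wild type, 699225 to 787958 in *10xPerf* and 1622 to 3798 in *10xBulge*, and none was listed at 0. Among 14 markers of spermatocytes, the cells in which the 10 genes are best known to act, 1 rose and 2 fell, with a median of 0.0040. Their summed level was 33238 to 53166 in wild type, 47935 to 58992 in *10xPerf* and 28855 to 40461 in *10xBulge*. Of the spermatogonial markers 2 of 10 rose, of the Sertoli markers 6 of 9, of the Leydig markers 5 of 7 and of the macrophage markers 6 of 7. The summed Leydig level was 54210 and 76459 for N1 and N2, 46195 and 81755 for N3 and N4, and 312374 and 148720 for N5 and N6. Against *10xPerf*, all 14 spermatid markers fell, 0 of the 14 spermatocyte markers rose and 3 fell (median -0.46), and 6 of the 10 spermatogonial, 8 of the 9 Sertoli, 6 of the 7 Leydig and 5 of the 7 macrophage markers rose. The part of these shifts in the values of the 10 genes was not tested. In bulk tissue, fewer cells of a type and less RNA per cell cannot be told apart. The targeted gene *Ythdc2* stood at 827 and 2412 normalized counts for N1 and N2, 1334 and 1136 for N3 and N4, and 1202 and 2458 for N5 and N6, with a limma adjusted p of 0.754 for *10xBulge* and 0.939 for *10xPerf* against wild type.

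Per kilobase of the longest annotated transcript, *Mael* was the most abundant of the 10 genes in each genotype. In wild type its mean was 20075 ± 5504 normalized counts per kb (SD, n = 2), 155 times the lowest mean, 129 ± 27.0 for *Exd1*. *Ddx4* followed with 3860 ± 2070 and *Pld6* with 2634 ± 516, and these neighbours in the order overlapped between libraries. *Gpat2* at 1786 ± 196 and *Fkbp6* at 1735 ± 267 also overlapped. Next came *Mov10l1* with 835 ± 479 and *Henmt1* with 640 ± 62.6, again with overlap. The lowest levels per kb were those of *Asz1* at 277 ± 151, the trimmer gene *Pnldc1* at 182 ± 86.3 and *Exd1*, each overlapping the next. The order in *10xPerf* was the same but for *Fkbp6* and *Gpat2*, whose libraries overlapped. In *10xBulge*, *Fkbp6* stood at the second place with 3652 ± 550 per kb, beside *Ddx4* at 3233 ± 854, and the ratio of *Mael* to *Exd1* was 60.2. The last place of *Exd1* rests on its longest transcript of 6042 bp, against 2345 bp for *Asz1* and 2092 bp for *Pnldc1*. Before division by length its wild-type mean of 781 normalized counts was above those of *Asz1* (649, libraries overlapping) and *Pnldc1* (380).

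**Figure D1:**
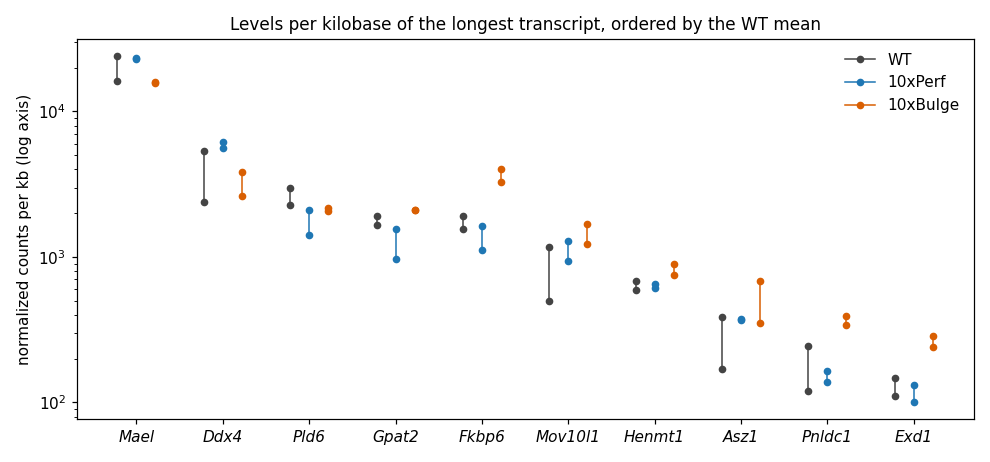
Normalized counts per kilobase of the longest transcript (log axis) for the 10 genes, ordered by the wild-type mean; each dot is a library and each line joins the 2 libraries of a genotype. *Mael* lies above all other genes and *Exd1* is the lowest mean in every genotype, while *Fkbp6* of *10xBulge* stands above its wild-type and *10xPerf* values.

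The genes of the mitochondrial cutting step did not pass the test in any of the 3 comparisons under the authors' normalization. *Mov10l1* (ENSMUSG00000015365.16, forward strand of chromosome 15, 88982909 to 89055152, GRCm38) encodes the helicase that feeds precursors to this step. The wild-type mice held 2052 and 4851 normalized counts of it, the *10xPerf* mice 3859 and 5358, and the *10xBulge* mice 6961 and 5108. Both *10xBulge* libraries were above both wild-type libraries, but N2 lay close to N6. The log2 fold change of 0.92 (95% confidence interval -0.19 to 2.03, standard error 0.49, limma adjusted p = 0.202) was 0.30 without N1 and 1.54 without N2, where it was called (limma adjusted p = 0.0695). *Asz1* (ENSMUSG00000010796.12, reverse strand of chromosome 6, 18050964 to 18109061) encodes GASZ, a scaffold of the cement between mitochondria. Normalized counts were 398 (N1) and 900 (N2) for wild type, 871 (N3) and 863 (N4) for *10xPerf*, and 825 (N5) and 1600 (N6) for *10xBulge*. The *10xBulge* and wild-type libraries overlapped, and the log2 fold change was 0.94 (95% confidence interval -0.21 to 2.09, standard error 0.51, limma adjusted p = 0.209). It was 0.35 without N1, 1.53 without N2, 0.46 without N6, and 1.42 without N5, where it was called (limma adjusted p = 0.0997).

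*Pld6* (ENSMUSG00000043648.8, reverse strand of chromosome 11, 59783897 to 59787645) encodes the endonuclease itself. Its level was 5258 and 3978 normalized counts for N1 and N2, 2469 and 3694 for N3 and N4, and 3828 and 3610 for N5 and N6. Wild type held the highest libraries, by a small margin against N5. For *10xPerf* against wild type the log2 fold change was -0.60 (95% confidence interval -1.50 to 0.31, standard error 0.40, limma adjusted p = 0.853). For *10xBulge* it was -0.30 (95% confidence interval -1.20 to 0.61, limma adjusted p = 0.625). *Gpat2* (ENSMUSG00000046338.5, forward strand of chromosome 2, 127425199 to 127436092) encodes a member of the glycerol-3-phosphate acyltransferase family on the mitochondrial membrane. The wild-type mice held 5058 and 4329 normalized counts of it, the *10xPerf* mice 2560 and 4117, and the *10xBulge* mice 5544 and 5552. The order of the genotypes was the same for every library, with *10xPerf* the lowest and *10xBulge* the highest. Its log2 fold change in *10xBulge* was 0.25 against wild type (95% confidence interval -0.66 to 1.15, limma adjusted p = 0.695) and 0.77 against *10xPerf* (95% confidence interval -0.14 to 1.68, limma adjusted p = 0.183). Under library totals the difference of *Gpat2* from *10xPerf* was 1.02 and was called (limma adjusted p = 0.0491).

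Of the 3′ end enzymes, *Pnldc1* (ENSMUSG00000073460.6, reverse strand of chromosome 17, 12888729 to 12910230) was higher in *10xBulge* than in *10xPerf*. It encodes the 3′ to 5′ exonuclease that trims pre-piRNAs to their final length. Normalized counts were 508 (N1) and 252 (N2) for wild type, 345 (N3) and 291 (N4) for *10xPerf*, and 717 (N5) and 816 (N6) for *10xBulge*. Both *10xBulge* libraries lay above the other 4. The log2 fold change was 1.27 against *10xPerf* (95% confidence interval 0.25 to 2.28, standard error 0.45, limma adjusted p = 0.0642), a 2.41-fold difference. Against wild type it was 1.09 (standard error 0.45, 95% confidence interval 0.08 to 2.11) with a limma adjusted p of 0.107, just above the threshold. Without N1 that value was 1.596 and called (limma adjusted p = 0.0744), and without N2 it was 0.59. *Henmt1* (ENSMUSG00000045662.18, forward strand of chromosome 3, 108939873 to 108960774) encodes the methyltransferase that protects the trimmed 3′ end. Its level was 1368 and 1191 normalized counts for N1 and N2, 1231 and 1295 for N3 and N4, and 1798 and 1512 for N5 and N6. Although the *10xBulge* libraries did not overlap the others, the log2 fold change was only 0.37 against wild type (95% confidence interval -0.47 to 1.21, limma adjusted p = 0.502). Exons of *Henmt1* overlap those of the opposite-strand gene *Gm9857* over 392 bp, and exons of *Pnldc1* overlap those of the antisense gene *AL589878.1* over 144 bp. The library kit marks strand, and reads of these partners were not examined.

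The most abundant genes of wild type per kb, *Mael* and *Ddx4*, code for germ granule proteins and were called in none of the comparisons. *Mael* (ENSMUSG00000040629.9, reverse strand of chromosome 1, 166201201 to 166238747) reached 27365 and 40528 normalized counts for N1 and N2, 38793 and 39410 for N3 and N4, and 27030 and 26648 for N5 and N6. The *10xBulge* libraries were the lowest, yet N1 of wild type lay only just above N5. Its log2 fold change in *10xBulge* was -0.31 against wild type (95% confidence interval -1.27 to 0.64, limma adjusted p = 0.631) and -0.54 against *10xPerf* (95% confidence interval -1.50 to 0.41, limma adjusted p = 0.373). *Ddx4* (ENSMUSG00000021758.15, reverse strand of chromosome 13, 112598333 to 112652475) encodes a DEAD-box helicase that is widely used as a germ cell marker. The wild-type mice held 7217 and 16035 normalized counts of it, the *10xPerf* mice 18601 and 16987, and the *10xBulge* mice 7919 and 11555. Wild type spanned the whole *10xBulge* range, and *10xPerf* was above both. The log2 fold change of *10xPerf* against wild type was 0.72 (95% confidence interval -0.37 to 1.82, limma adjusted p = 0.853). That of *10xBulge* against *10xPerf* was -0.89 (95% confidence interval -1.99 to 0.20, limma adjusted p = 0.200).

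*Exd1* and *Fkbp6* rose in *10xBulge* against both other genotypes. *Exd1* (ENSMUSG00000048647.10, reverse strand of chromosome 2, 119516505 to 119547627) encodes a protein with an exonuclease-like domain that acts as an RNA adaptor. Normalized counts were 666 (N1) and 897 (N2) for wild type, 794 (N3) and 608 (N4) for *10xPerf*, and 1738 (N5) and 1446 (N6) for *10xBulge*. The log2 fold change was 1.04 against wild type (95% confidence interval 0.14 to 1.93, standard error 0.39, limma adjusted p = 0.0854) and 1.19 against *10xPerf* (standard error 0.39, limma adjusted p = 0.0514). Both *10xBulge* libraries were above the other 4, and the fitted difference from wild type was 2.05-fold. *Fkbp6* (ENSMUSG00000040013.12, reverse strand of chromosome 5, 135291704 to 135350044) encodes the immunophilin co-chaperone. Its level was 2783 and 2237 normalized counts for N1 and N2, 1607 and 2359 for N3 and N4, and 5847 and 4722 for N5 and N6. Its log2 fold change was 1.07 against wild type (95% confidence interval 0.17 to 1.97, standard error 0.40, limma adjusted p = 0.0792) and 1.43 against *10xPerf* (95% confidence interval 0.53 to 2.33, standard error 0.40, limma adjusted p = 0.0264), the smallest p among the 10 genes.

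**Figure D2:**
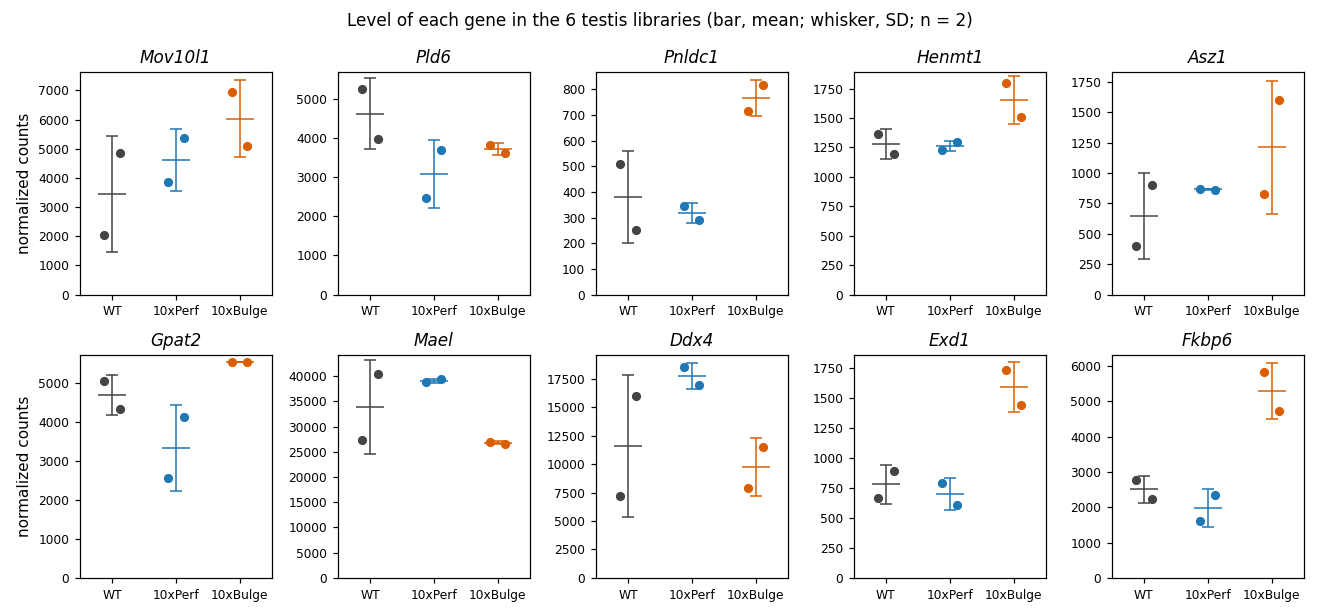
Normalized counts of the 10 genes in each library (dots), with the mean (bar) and SD (whisker, n = 2) of each genotype; every vertical axis starts at 0 and has its own scale. Both *10xBulge* libraries of *Pnldc1*, *Henmt1*, *Gpat2*, *Exd1* and *Fkbp6* lie above the other 4, while wild-type libraries of *Mov10l1*, *Ddx4* and *Asz1* lie far apart. The share of all genes that lie above both other genotypes was not counted. It was 28.9% against wild type alone and 30.7% against *10xPerf* alone.

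Most of these calls did not hold when single libraries were left out. Over all genes, calls higher in *10xBulge* against wild type also became fewer without N1, N2, N3, N4 or N5, though not without N6. Without N3 or N4 the log2 fold changes against wild type stayed at 1.04 for *Exd1* and 1.07 for *Fkbp6*, because these libraries enter only the pooled spread. Leaving out a library, with a lone remaining library assumed to vary like the other genotypes, ended the *Exd1* call against wild type in every case, with a limma adjusted p of 0.281 without N1, 0.101 without N2, 0.133 without N3, 0.133 without N4, 0.216 without N5 and 0.105 without N6. The *Fkbp6* call against wild type remained without N6 (limma adjusted p = 0.0883) and was lost without N1, N2, N3, N4 or N5 (limma adjusted p = 0.144, 0.211, 0.121, 0.121 and 0.205). Against *10xPerf*, *Fkbp6* lost its call without N3 only (limma adjusted p = 0.212), whereas *Exd1* lost it without N3, N4 or N5 (limma adjusted p = 0.149, 0.214 and 0.152) and *Pnldc1* without N3, N4, N5 or N6 (limma adjusted p = 0.225, 0.242, 0.106 and 0.132). The direction of all 5 differences was the same under all 17 alternative settings, but for many of these it could not have changed. Settings that alter only the filter, the spread or the threshold leave an estimate as it was. For these genes both *10xBulge* libraries lay above all the others, so leaving out a library could not change the sign. The log2 fold change against wild type ranged over the settings from 0.82 to 1.42 for *Exd1* and from 0.92 to 1.46 for *Fkbp6*. That of *Fkbp6* against *10xPerf* ranged from 1.16 to 1.80.

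Counted over the 10 genes, 2 rose and none fell in *10xBulge* against wild type in limma. At an unadjusted p under 0.05, 3 were higher and 0 lower. The largest limma p of these 3, 0.0378 for *Pnldc1*, held place 8413 by p among 23782 genes, in either direction. Counted in either direction, 3 of 10 was therefore no larger a share than that of all genes. At the adjusted threshold 11.4% of all genes tested were called higher and 23.0% lower, 34.4% in all. The median log2 fold change was 0.64 for the 10 genes and -0.026 for all genes tested. The libraries of 6 genes were higher in both *10xBulge* mice without overlap and those of 2 genes lower, against 28.9% and 33.2% of all genes tested. Scaling by library totals in place of the authors' normalization changed the split of all calls from 2712 higher and 5466 lower to 5778 higher and 4791 lower, moved the median of all genes to 0.35, and called 5 of the 10 genes higher. *Mov10l1*, *Pnldc1* and *Henmt1* were the added calls (limma adjusted p = 0.0622, 0.0386 and 0.0944), and *Pld6*, *Mael* and *Ddx4* changed sign.

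In *10xBulge* against *10xPerf*, 3 of the 10 genes were called higher (*Pnldc1*, *Exd1* and *Fkbp6*) and none lower in limma. The numbers at an unadjusted p under 0.05 were the same, 3 and 0. The largest limma p of these 3, 0.0200 for *Pnldc1*, held place 7405 by p among 23782 genes, in either direction. Counted in either direction, 3 of 10 was again no larger a share than that of all genes. At the adjusted threshold the share of all genes tested was 12.9% higher and 24.1% lower, 37.0% in all. Without overlap between libraries 5 of the 10 genes were higher and 2 lower, against 30.7% and 35.3% of all genes tested. The median log2 fold change was 0.40 for the 10 genes and -0.067 for all. Under library totals 4 of the 10 genes were called, *Gpat2* being added, and the calls over all genes were 5108 higher and 5206 lower instead of 3077 and 5729, and relative to spermatocyte markers 3829 higher and 4471 lower. The comparisons of *10xBulge* with wild type and with *10xPerf* share the *10xBulge* libraries.

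In *10xPerf* against wild type, limma called 0 of the 10 genes at the adjusted threshold and 0 at an unadjusted p under 0.05. The smallest unadjusted p was 0.168, for *Ddx4*. Of all genes tested 0.467% were called higher and 0.492% lower, 0.959% in all. The 10 log2 fold changes lay between -0.60 (*Pld6*) and 0.72 (*Ddx4*), with a median of -0.084. The libraries of 7 genes overlapped. *Ddx4* was higher in both *10xPerf* libraries, while *Pld6* and *Gpat2* were lower, and over all genes tested 20.2% were higher and 19.8% lower without overlap. For *Henmt1*, the gene closest to no difference, the estimate was -0.015 with a 95% confidence interval of -0.85 to 0.82. Changes within such intervals were not detectable with 2 mice per genotype.

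**Figure D3:**
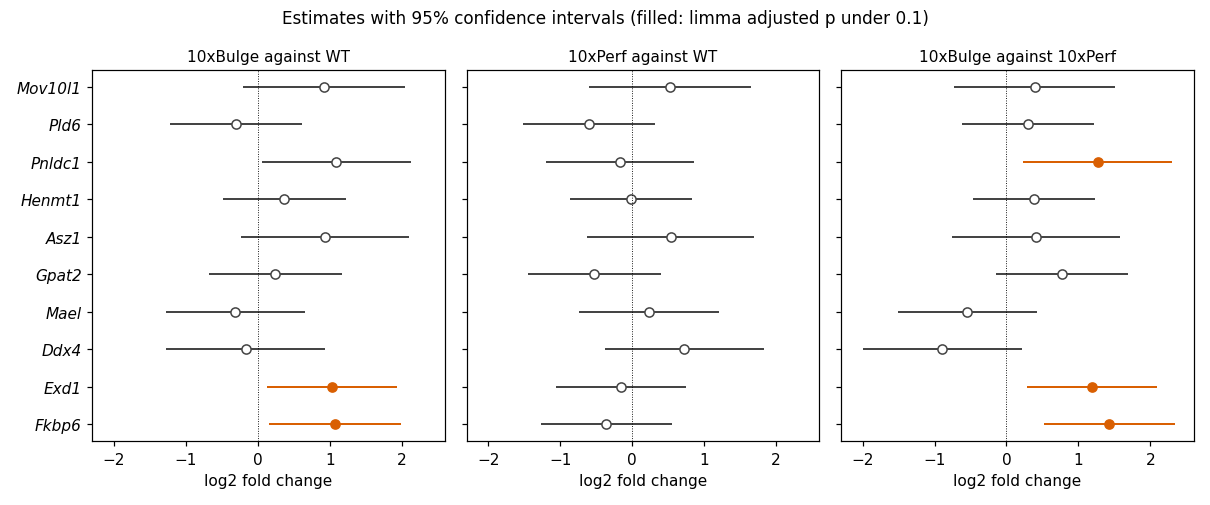
Log2 fold changes of the 10 genes (dots) with 95% confidence intervals (lines) in the 3 comparisons, filled and orange where the limma adjusted p was under 0.1. Filled dots are *Exd1* and *Fkbp6* in *10xBulge* against wild type and *Pnldc1*, *Exd1* and *Fkbp6* in *10xBulge* against *10xPerf*; there are none in *10xPerf* against wild type.

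The spread between mice of a genotype was not alike for the 10 genes. In wild type, *Mov10l1* was lower in N1 than in N2 by 1.24 on the log2 scale, *Asz1* by 1.17 and *Ddx4* by 1.15, whereas *Pnldc1* was higher in N1 by 1.01. The called differences between genotypes ran from 1.04 to 1.43, and *Pnldc1* (1.27) and *Fkbp6* (1.43) against *10xPerf* exceeded all 4 of these. The called genes *Exd1* and *Fkbp6* differed less between mice than those 4 genes did in wild type. A small spread between mice is part of what a call requires. The uncalled *Henmt1* also differed little, by 0.20 (N1 minus N2), -0.073 (N3 minus N4) and 0.25 (N5 minus N6). For *Exd1* the differences were -0.43 (N1 minus N2), 0.39 (N3 minus N4) and 0.27 (N5 minus N6). For *Fkbp6* they were 0.31, -0.55 and 0.31 in the same order. *Pnldc1*, called against *10xPerf* only, differed by 0.24 for N3 minus N4 and -0.19 for N5 minus N6. The N1 to N2 differences moved with base composition. The transcripts with the lowest GC content, *Asz1* at 36.3%, *Ddx4* at 43.1% and *Mael* at 44.9%, were all lower in N1, and those with the highest, *Pld6* and *Gpat2* at 55.6%, *Fkbp6* at 52.5% and *Pnldc1* at 51.96%, were all higher in N1. Spearman's rho between GC content and the difference of N1 to N2 was 0.794 over the 10 genes, and 0.615 over 12426 protein-coding genes from the same libraries, which are not independent replicates. For N3 against N4 the values were -0.673 and -0.242, and for N5 against N6 they were 0.37 and 0.518. *Mov10l1*, at a GC content of 49.9%, departed from this order, and *Henmt1* with nearly the same GC content differed by 0.20 in the other direction.

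**Figure D4:**
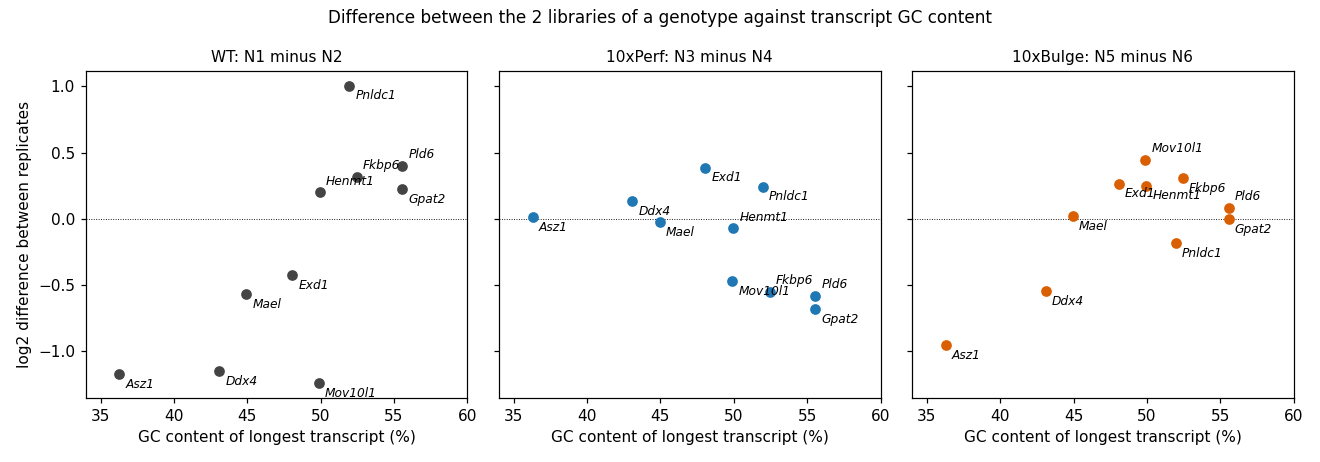
Log2 difference between the 2 libraries of each genotype (vertical axis) against the GC content of the longest transcript in percent (horizontal axis), with a dot for each of the 10 genes. In wild type the low-GC genes *Asz1*, *Ddx4* and *Mael* lie below 0 and the high-GC genes *Pld6*, *Gpat2*, *Fkbp6* and *Pnldc1* above it. In *10xPerf*, *Pld6*, *Gpat2* and *Fkbp6* lie below 0 and *Pnldc1* above it.

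After each library's GC trend was removed, 4 of the 10 genes were called higher in *10xBulge* against wild type, while calls over all genes went from 2712 to 3836 higher and from 5466 to 6166 lower. *Pnldc1* with a log2 fold change of 1.10 (limma adjusted p = 0.0663) and *Asz1* with 1.17 (limma adjusted p = 0.0670) joined *Exd1* at 1.07 and *Fkbp6* at 1.06 (limma adjusted p = 0.0398 and 0.0273). The N1 to N2 difference of *Ddx4* shrank from -1.15 to -0.82, but that of *Mov10l1* went from -1.24 to -1.33. For the added call *Asz1*, the N1 to N2 difference went from -1.17 to -0.91 and that of N5 to N6 from -0.95 to 0.39. Its N3 to N4 difference grew from 0.014 to -0.77. *Pnldc1* went from 1.01 to 0.74 for N1 to N2. Its differences of N3 to N4 and N5 to N6 grew, from 0.24 to 0.43 and from -0.19 to -0.55. GC trends that differ between genotypes are removed by this correction together with those between mice.

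The other genes of the pathway were counted from a list of 20 PIWI, GTSF, Tudor and regulator genes. In *10xBulge* against wild type, 1 rose, 4 fell and 15 were not called, with a median log2 fold change of 0.45. Of all genes tested, 11.4% were called higher and 23.0% lower. The fallen genes were the slicing cofactor gene *Gtsf1* (-1.39, limma adjusted p = 0.0275), its relatives *Gtsf1l* (-5.44, limma adjusted p = 9.33e-05) and *Gtsf2* (-3.25, limma adjusted p = 0.000162), and *Spocd1* (-2.96, limma adjusted p = 0.00379), which links piRNAs to DNA methylation. *Gtsf1l* went from 8479 and 9364 normalized counts for N1 and N2 to 383 and 108 for N5 and N6. Among the 10 production and trimming genes the lowest estimate in this comparison was -0.31, and none of the listed PIWI and Tudor genes was called lower in it either. Against *10xPerf* the lowest estimate of the 10 genes was -0.89, for *Ddx4*. The gene that rose was *Piwil4* at low levels, from 46.2 and 28.0 normalized counts for N1 and N2 to 117 and 78.0 for N5 and N6 (log2 fold change 1.38, limma adjusted p = 0.0967). *Tdrd12*, whose product partners with EXD1, had a log2 fold change of 0.65 (limma adjusted p = 0.346), and *Tdrkh*, whose product holds PNLDC1 at mitochondria, 0.78 (limma adjusted p = 0.251). *Piwil4*, *Tdrd12* and *Tdrkh* were chosen after their values were seen. In *10xPerf* against wild type, limma called 0 of the 20 at the adjusted threshold and 0 at an unadjusted p under 0.05.

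Of 10 relatives of these genes, a list of helicase, nuclease, acyltransferase and immunophilin genes, 3 rose and 2 fell in *10xBulge* against wild type. The shares of all genes tested were 11.4% and 23.0%. The acyltransferase relatives of *Gpat2* were split, since *Gpam* rose (log2 fold change 1.55, limma adjusted p = 0.0210) while *Gpat3* (-3.39, limma adjusted p = 0.00147) and *Gpat4* (-1.79, limma adjusted p = 0.0267) fell. *Gpat4*, the most abundant of them, went from 34482 and 23961 normalized counts for N1 and N2 to 11970 and 5788 for N5 and N6. *Ddx3x*, a ubiquitous DEAD-box relative of *Ddx4*, rose from 627 and 2073 normalized counts for N1 and N2 to 2965 and 3476 for N5 and N6 (log2 fold change 1.49, limma adjusted p = 0.0772). Its *10xPerf* libraries N3 and N4 held 1962 and 2415. *Fkbp5*, a relative of *Fkbp6*, also rose (1.39, limma adjusted p = 0.0917). It had 8211 normalized counts in N5 and 2694 in N6, a wider gap than that of *Fkbp6*. *Mov10*, the relative of *Mov10l1*, had a log2 fold change of 1.09 (limma adjusted p = 0.112) and *Parn*, the relative of *Pnldc1*, 0.41 (limma adjusted p = 0.529). In *10xBulge* against *10xPerf*, *Gpam* and *Mov10* were called higher and *Gpat3* and *Gpat4* lower. *Ddx3x* (0.56) and *Fkbp5* (0.98) were not called there (limma adjusted p = 0.485 and 0.211). In *10xPerf* against wild type, limma called 0 of the 10 relatives at the adjusted threshold and 0 at an unadjusted p under 0.05. *Fkbp5*, *Mov10* and *Parn* were chosen after their values were seen.

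**Figure D5:**
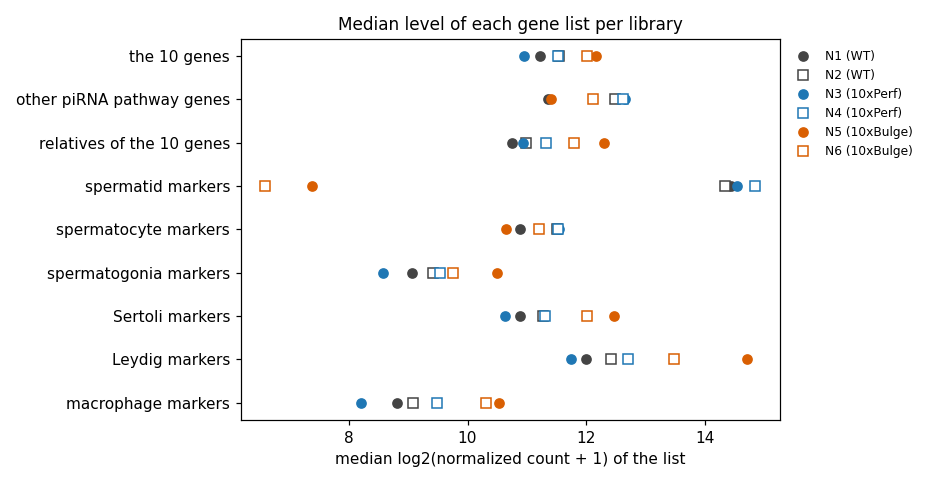
Median log2(normalized count + 1) of each gene list (rows) in each library (symbols, filled for the lower and open for the higher library number of a genotype). The spermatid markers of both *10xBulge* libraries lie near 7, far left of the other 4, and the 10 genes lie at 12.17 and 12.01 in *10xBulge* against 11.0 to 11.5 elsewhere. The medians of the relatives (12.30 and 11.79 against 10.8 to 11.3) and of the spermatogonial, Sertoli, Leydig and macrophage lists are also higher in *10xBulge*. The summed level of the 10 genes, not drawn, was 62208 and 62569 normalized counts in N5 and N6, within the 52672 to 75200 of the other libraries.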

How the data were processed

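Total RNA from adult testes was depleted of ribosomal RNA and sequenced (6 libraries). The 20 MILI and MIWI immunoprecipitation libraries are not analysed here. The authors quantified reads with salmon (GRCm39, Ensembl, GC-bias option on) and deposited normalized counts per gene from DESeq2, a signal that is not whole reads: 19.3% of the genes above 0 were whole multiples of 1 read (tolerance 0.01 reads) in all 6 libraries. Count tests, planned for counts only, were not run. The authors also deposited log2 fold changes and adjusted p-values for the comparisons of either knock-in with wild type, which were not used.

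The filter kept genes that reached 10 in 2 or more libraries. A limma 3.58.1 model (R 4.3.3) of log2(value + 1), with genotype as the only factor and eBayes with trend, gave the differences, after the procedure was tested on simulated data. The threshold of 0.1 on the adjusted p is that of the study's legends. Alternatives tried were library totals or the upper quartile as scaling, filters of 1 in 1 library or 10 in every library, pseudocounts of 0.1 and 10, only the 2 genotypes compared, no trend, an adjusted p under 0.05, removal of each library's GC trend (loess, span 0.3, library median kept), and leaving out each library. Values relative to spermatocyte markers were added after seeing the data. GC content and length came from the longest GENCODE transcript and gene positions from the same annotation, on GRCm38. Named genes are the 10 members, up to 4 genes of a list by smallest p, and the 5 genes with a mean of at least 100 nearest to the members' mean pattern. Other names are marked as chosen after their values were seen. The members and lists were chosen with earlier results of these data known. Figures were drawn with matplotlib 3.10.9 in Python 3.11.15. Floors and depths cover counting error only.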

Additional observations from a re-analysis of the deposited data

How the results depend on the processing

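No paired analysis was possible because the libraries of the genotypes carry different numbers and come from different mice. In *10xBulge* against wild type, the 2 of 10 genes called higher became 5 under library totals and 4 after GC trend removal, where calls over all genes went from 2712 higher to 5778 and 3836. It became 1 under the upper quartile or a filter of 10 in each library, where 2295 and 2599 of all genes were called higher. It became 0 when fitting just the 2 genotypes or dropping the mean-variance trend, where 1512 and 2149 of all genes were called higher. It was also 0 at an adjusted p under 0.05 and relative to spermatocyte markers, with 1370 and 1962 of all genes higher. With a library left out the number was lower, and calls higher over all genes were also fewer except without N6. In *10xBulge* against *10xPerf*, the 3 called higher became 4 under library totals (*Gpat2* gained), 2 under the upper quartile (*Pnldc1* lost, limma adjusted p = 0.107) and 1 at an adjusted p under 0.05, and lay between 0 (without N3) and 3 on leaving out single libraries. Over all genes, calls higher in *10xBulge* against *10xPerf* went from 3077 to 5108 under library totals and to 2831 under the upper quartile. No setting called any of the 10 genes lower in any comparison, or higher in *10xPerf*. Of 510 values of the 10 genes over the 17 settings, 450 kept their direction and their side of the threshold, 32 lost and 9 gained a call, and 19 changed sign, none of which was called.

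The sign changes in *10xBulge* against wild type were *Pld6* to 0.084, *Mael* to 0.072 and *Ddx4* to 0.21 with library totals. In *10xPerf* against wild type, *Henmt1* became 0.12 under library totals and 0.037 after GC trend removal, *Pnldc1* 0.021 after GC trend removal, and *Mael* -0.034 relative to spermatocyte markers. In *10xBulge* against *10xPerf*, *Pld6* became -0.18 with the GC trend removed. With a library left out, *Ddx4* ranged from -0.75 to 0.41 in *10xBulge* against wild type and *Asz1* from -0.072 to 0.88 in *10xBulge* against *10xPerf*. In *10xPerf* against wild type the ranges were -0.093 to 1.15 for *Mov10l1*, -0.68 to 0.33 for *Pnldc1*, -0.12 to 0.084 for *Henmt1*, -0.053 to 1.12 for *Asz1*, -0.052 to 0.51 for *Mael* and -0.37 to 0.061 for *Exd1*. Causes of these changes were not tested.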

Other observations

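The mean pattern of the 10 genes, as log2 values centred per gene, was -0.29 and -0.049 for N1 and N2, -0.23 and -0.070 for N3 and N4, and 0.30 and 0.34 for N5 and N6. Among genes with a mean of at least 100 normalized counts, those closest to it over the 6 libraries were *Matn2* (root mean square difference 0.053 on the log2 scale), *Zbtb34* (0.054), *Cmc1* (0.074), *Swi5* (0.081) and *Metap1d* (0.083). *Zbtb34* stood at 1068 and 1196 normalized counts for N1 and N2, 1066 and 1124 for N3 and N4, and 1634 and 1570 for N5 and N6.

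RefSeq promoter windows (GRCm38.p6, 300 bases each) were given for 9 of the 10 genes, all but *Pnldc1*, in 11 windows. None held the palindromic MYB core AACNGTT, which 4.45% of 32851 promoter windows hold, and this says only that these letters are not in these windows.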
